A study of Homo sapiens with 12 samples.

Results

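Collagens and laminins build the matrix outside cells, and integrins are the receptors by which cells hold on to it. The set of genes was chosen with earlier results of these data known, and its members were taken by a name rule. The rule took every listed collagen symbol (COL, a number, A, a number) and laminin symbol (LAMA, LAMB or LAMC with a number). It also took every listed symbol of an integrin alpha chain (ITGA) or an integrin beta chain (ITGB1 to ITGB8). The rule found 82 of 19677 listed genes, of which 44 were collagen, 12 laminin, 18 integrin alpha and 8 integrin beta genes. Those averaging 1 CPM or more over the 4 groups are described here (CPM, counts scaled to the size of the library). They were 38 genes: 15 collagen, 8 laminin, 9 integrin alpha and 6 integrin beta genes. ITGA10 was just inside this limit at a mean of 1.16 CPM, and LAMA2 just outside it at 0.94 CPM.

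RNA was sequenced from CAOV3, an established human cell line labelled as epithelial high grade serous ovarian carcinoma and as wild type. Cells were grown in DMEM with fetal bovine serum and treated in 4 groups of 3 libraries. The control group received DMSO. The ascites group received 10% ovarian cancer ascites, the fluid that gathers in the abdomen in this disease, and DMSO for 16 hours. The bezafibrate group received 200 uM bezafibrate for 16 hours, and the combination group received both agents for 16 hours at those doses. The labels name DMSO in the control and ascites groups and no solvent in the groups given the drug. By these labels every comparison with the drug may also differ in solvent, and drug and solvent cannot be told apart. All groups are of 1 cell line, and neither the number of ascites sources nor whether the libraries came from separate experiments is given in the sources used here, so the p-values measure the spread between these libraries, which may be technical. Bezafibrate is a fibrate, a lipid-lowering drug that activates PPAR nuclear receptors.

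A laminin is a trimer of an alpha, a beta and a gamma chain and is laid down in basement membranes, the sheets under epithelia. Collagens are trimers too, and their classes differ in form: fibrils, sheets, beaded filaments, anchoring fibrils and chains that span the membrane. An integrin is a pair of 1 alpha and 1 beta chain; with ITGB1, the products of ITGA3, ITGA6 and ITGA7 bind laminin, those of ITGA1, ITGA2 and ITGA10 bind collagen, and those of ITGA5 and ITGAV bind proteins with an RGD motif such as fibronectin. In ovarian carcinoma, cells from the ascites attach to the mesothelium and its matrix, and this adhesion is the setting in which these genes are usually studied.

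The promoters of ITGA6, COL6A2 and LAMB3 are shown because these genes had some of the larger increases with bezafibrate, in an integrin, a collagen and a laminin. They are the bases before the RefSeq start on GRCh38.p14, 5′ to 3′ on the gene's strand, ended before the first base of any GENCODE 29 exon of the gene. Capitals mark a TATA box (TATAAA) or a GC box (GGGCGG) on either strand.
ITGA6, chr2:172427086-172427335, plus strand: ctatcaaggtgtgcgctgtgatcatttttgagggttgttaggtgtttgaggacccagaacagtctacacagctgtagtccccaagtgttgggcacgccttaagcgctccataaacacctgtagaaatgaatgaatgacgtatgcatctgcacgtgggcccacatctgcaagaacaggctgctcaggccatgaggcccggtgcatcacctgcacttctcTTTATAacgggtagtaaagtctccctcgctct
COL6A2, chr21:46097862-46098096, plus strand: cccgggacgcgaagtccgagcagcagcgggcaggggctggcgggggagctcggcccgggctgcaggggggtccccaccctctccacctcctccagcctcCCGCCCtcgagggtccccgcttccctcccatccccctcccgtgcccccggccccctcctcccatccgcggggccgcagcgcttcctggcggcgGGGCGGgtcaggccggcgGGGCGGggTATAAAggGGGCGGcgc
LAMB3, chr1:209652467-209652675, minus strand: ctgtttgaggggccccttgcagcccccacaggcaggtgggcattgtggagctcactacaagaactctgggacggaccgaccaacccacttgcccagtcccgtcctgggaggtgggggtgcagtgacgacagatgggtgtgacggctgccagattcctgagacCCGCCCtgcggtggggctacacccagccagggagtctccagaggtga

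The ITGA6 and COL6A2 windows each held 1 TATA box, at -32 to -27 from the RefSeq start in both, on the minus strand (TTTATA) in ITGA6. The COL6A2 window held 4 GC boxes and the LAMB3 window 1. Of the 38 genes, 27 had a promoter in the RefSeq table, searched for 5 motifs over the 250 bases before the start on both strands. The TATA box letters were in 14.8% of these 27 (COL6A2, COL7A1, COL17A1 and ITGA6) and in 5.39% of the 10038 promoters of tested genes. The GC box was in 66.7% against 67.7%, the CCAAT box (CCAAT) in 14.8% against 35.2%, and the nuclear receptor core letters AGGTCA in 3.7% (COL7A1) against 8.46%. The AP-1 letters TGANTCA were in 1 of the 27, LAMA3, at -125 to -119 and -69 to -63, and in 3.88% of promoters of tested genes. These are matches of letters in 1 window per gene, and the windows hold no distant site.

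The depth was 11831093 to 18762759 counts per library, and the 82 genes took 0.459% to 0.465% of the counts without bezafibrate and 0.522% to 0.544% with it. On the log2 CPM of the 38 genes, 72.9% of the variance lay along the first principal component, which placed the 6 libraries with the drug apart from the 6 without it. Combination replicate 3 stood apart on the second component of all genes, at 22.4, but not on that of these genes, at 0.09, and counts are given without it below. For single genes that library was still at an end of the 6 with the drug. It was the lowest for COL7A1, LAMA5, COL6A1 and COL18A1, for example, and the highest for ITGA6 and ITGAV. Epithelial markers were present (means of 762 CPM for KRT7 and 27.6 CPM for EPCAM in the control group), while the ovarian serous markers PAX8, WT1, MUC16, SOX17 and WFDC2 had control means of 0.378 CPM or less. The 16 epithelial and serous markers summed to 6274 to 6404 CPM in control, 6432 to 6603 with ascites, 6598 to 6932 with bezafibrate and 7060 to 7180 with both. Of the 10 markers tested, 5 were called higher with the drug, against 15% of all genes tested, and 0 lower, against 13.2%. Group means did not all rise from control to bezafibrate. CDH1 went from 18.6 to 53.3 CPM, CLDN4 from 121.8 to 195.8, KRT7 from 762 to 1118 and KRT19 from 600 to 713. Of the tested markers, KRT8 went down from 3005 to 2914, KRT18 from 1784 to 1720 and CLDN3 from 2.47 to 2.20 CPM. KRT8 and KRT18 made up most of the sums above. The part of these markers in the results below was not tested. In bulk RNA, fewer cells of a kind and less RNA per cell cannot be told apart.

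The levels of these genes in control cells were compared per kb of transcript, since longer transcripts give more counts. ITGB1, the beta chain shared by most of these receptors, had the highest control mean, 223 CPM per kb. LAMB1 (81.1), ITGAV (80.0) and COL6A1 (65.7 CPM per kb) followed, then COL5A2 (49.5), ITGA3 (46.2) and ITGA6 (35.5 CPM per kb). Among laminin chains, LAMB1 was above LAMA5 (29.6), LAMC1 (21.8), LAMA4 (15.5), LAMB2 (8.32), LAMA3 (1.98) and LAMB3 (1.57 CPM per kb). LAMA3 makes a long and a short transcript, and its level was 3.72 CPM per kb on the 5671-base one. ITGB4, which pairs with the ITGA6 chain in hemidesmosomes, was at 0.405 CPM per kb, a low level beside ITGA6. The 9 sheet-forming and network collagen chains (COL4A1 to COL4A6, COL8A1, COL8A2 and COL10A1) summed to 0.137 CPM per kb, and none of them reached 1 CPM.

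**Figure D1:**
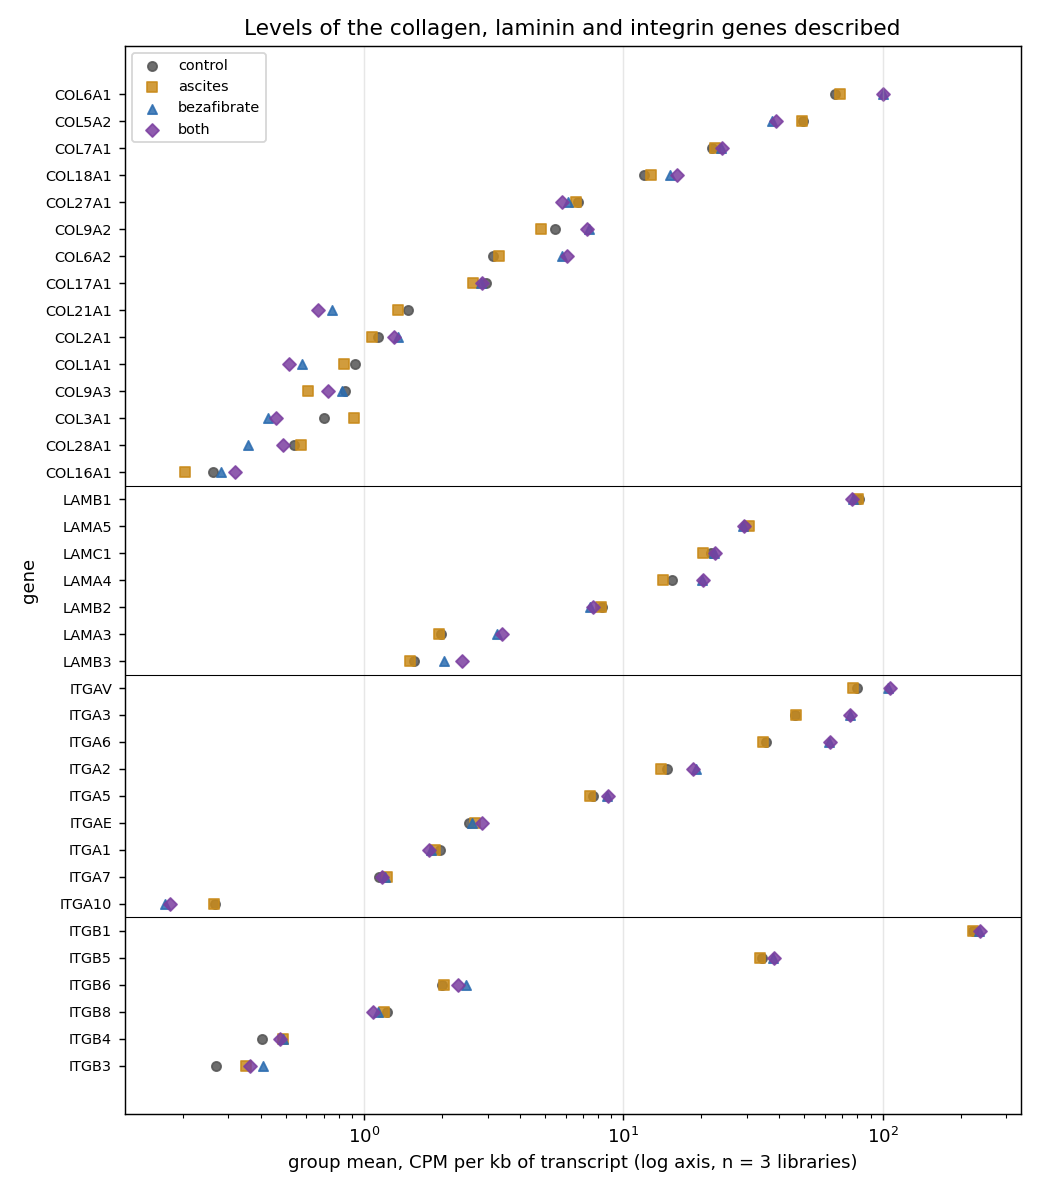
Group means of the genes described in CPM per kb of transcript on a log axis, ordered by level within collagens, laminins, integrin alpha and integrin beta chains; each symbol is the mean of 3 libraries of one group. ITGB1 lies at the right at 223 CPM per kb in control, and the drug groups lie to the right of the groups without drug for COL6A1, COL6A2, LAMA3, ITGA3 and ITGA6 and to the left for COL5A2, COL21A1, COL1A1 and COL3A1.

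The comparison of bezafibrate with control asked what the drug changed in cells without ascites. With the drug, the laminin-binding integrin chains ITGA3 and ITGA6, 4 laminin chains and the collagen VI chains COL6A1 and COL6A2 were higher, and the fibrillar collagens COL1A1, COL3A1 and COL5A2 were lower. Of the 38 genes, 20 passed edgeR's quasi-likelihood test at a Benjamini-Hochberg adjusted p under 0.05 (52.6%), against 17.6% of the 12470 genes tested. They were 15 higher (background 10.1%) and 5 lower (background 7.55%). The median log2 change was 0.11 over the 38 genes and -0.0037 over all genes tested. For 26 of the 38 genes the 3 libraries of one group lay beyond those of the other (background 33.5%).

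The comparison of the combination with ascites alone asked the same of the drug in cells that also had ascites, and shares no library with the first. Again 20 of the 38 genes were called (52.6%, background 17.8%), 16 higher (background 10.5%) and 4 lower (background 7.29%), with a median log2 change of 0.14, and 24 of the 38 had groups that did not overlap (background 30.5%). The 2 comparisons called 19 genes in the same direction, 15 higher and 4 lower, which was 95% of each list; over all genes tested the shared calls were 71.7% and 71.2% of the lists. LAMB1 was called without ascites and LAMC1 with ascites, and the difference between the effects was not called for either. The LAMB1 call had an edgeR adjusted p of 0.0468 and was lost under 13 of 19 alternatives, whose adjusted p ranged from 0.00883 to 0.166. The mean of both effects, bezafibrate averaged over the groups without and with ascites, called 25 of the 38 genes (65.8%, background 28.3%), 18 higher (background 15%) and 7 lower (background 13.2%). Without combination replicate 3, the counts were 15 higher and 5 lower for the drug in the presence of ascites, and 17 higher and 8 lower for the mean of both effects. It has the most libraries on each side, and the changes below are from it unless named otherwise. For 22 of the 38 genes the 6 libraries with the drug did not overlap the 6 without it, against 15.3% of all genes tested.

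**Figure D2:**
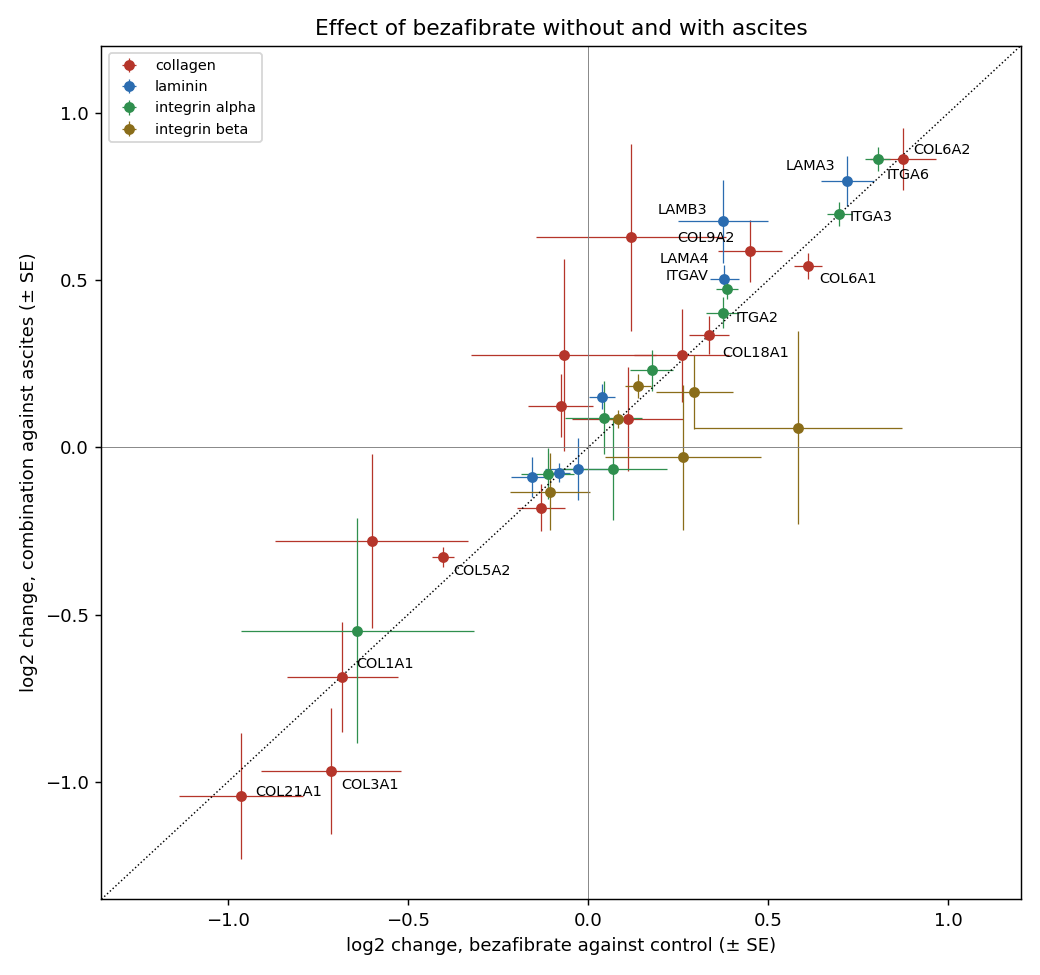
Log2 change with bezafibrate without ascites (horizontal axis) and with ascites (vertical axis) for the genes described, ± SE, with colours for the families and a dotted line where both are equal. The points lie along the line, with COL6A2, ITGA6, LAMA3 and ITGA3 at the top right and COL21A1, COL3A1 and COL1A1 at the bottom left.

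Among laminin-binding integrin alpha chains, ITGA6 (ENSG00000091409.16, chr2:172427354-172506282) had 199, 202 and 198 CPM in the control libraries and 199, 184 and 199 CPM with ascites. It had 355, 340 and 351 CPM with bezafibrate and 347, 344 and 367 CPM with both. All 6 libraries with the drug were above all 6 without it, and the gene rose by 0.83 ± 0.02 (log2, SE), or 1.78-fold (edgeR adjusted p = 4.28e-26). ITGA3 (ENSG00000005884.18, chr17:50055968-50090481) had 232, 220 and 225 CPM in control and 228, 226 and 226 CPM with ascites. With bezafibrate it had 355, 357 and 387 CPM, and with both 374, 377 and 351 CPM. Its groups did not overlap either, and its log2 change was 0.70 ± 0.02, or 1.62-fold (edgeR adjusted p = 2.05e-23). ITGA7, the laminin receptor chain known from muscle, had a median of 4.92 CPM without the drug and 4.78 with it, and its log2 change was 0.00 ± 0.11. Summed over the 3 chains, the level was 82.9 CPM per kb in control and 138 with bezafibrate.

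The collagen-binding chain ITGA2 had 110, 121 and 119 CPM in control, 111, 106 and 113 with ascites, 154, 150 and 148 with bezafibrate and 136, 145 and 159 with both. Its groups with and without the drug did not overlap, and it rose by 0.39 ± 0.03 on the log2 scale (edgeR adjusted p = 9.36e-12). ITGA1, which also binds collagen and lies 30.1 kb from ITGA2 on chromosome 5, had medians of 20.6 CPM without and 19.3 CPM with the drug and was not called, with a log2 change of -0.10 ± 0.05. ITGA10 was not called at a log2 change of -0.59 ± 0.23 (edgeR adjusted p = 0.0536), on levels of 0.784 to 1.80 CPM.

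ITGAV, the alpha chain that pairs with ITGB1, ITGB3, ITGB5, ITGB6 and ITGB8 products, had 558, 570 and 560 CPM in control and 535, 526 and 555 with ascites. It had 757, 725 and 724 CPM with bezafibrate and 724, 734 and 789 with both. All libraries with the drug were higher, by 0.43 ± 0.02 on the log2 scale (edgeR adjusted p = 8.16e-19). ITGA5, the fibronectin receptor chain, ranged from 32.5 to 34.4 CPM (median 33.8) without the drug and from 36.0 to 41.4 CPM (median 38.6) with it. The ranges did not overlap, and the change was 0.20 ± 0.04 (edgeR adjusted p = 0.000249). ITGAE, which pairs with ITGB7 and binds E-cadherin, was not called at 0.07 ± 0.08; 6.41% of its exon bases lie in HASPIN exons on the other strand, so its counts are uncertain without knowing whether strand was used.

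Of the 6 integrin beta chains, 3 were called higher (background 15%) and 0 lower (background 13.2%). ITGB1 had 818, 864 and 845 CPM in control, 842, 840 and 857 with ascites, 909, 891 and 878 with bezafibrate and 895, 870 and 929 with both. The 6 drug libraries lay above the others by a small margin, and the log2 change was 0.08 ± 0.02, or 6.04% higher (edgeR adjusted p = 0.000917). ITGB5 ranged from 142 to 154 CPM without and from 163 to 168 CPM with the drug (medians 148 and 167), without overlap, and rose by 0.16 ± 0.03 (edgeR adjusted p = 2.94e-06). ITGB6, found on epithelia, ranged from 9.11 to 9.89 CPM without and from 10.1 to 12.2 CPM with the drug (medians 9.42 and 11.1) and rose by 0.23 ± 0.08 (edgeR adjusted p = 0.0211). It was not called in either comparison of 3 libraries with 3. ITGB3, ITGB4 and ITGB8 were not called; ITGB4 had medians of 2.68 CPM without and 2.94 CPM with the drug.

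Of the 8 laminin chains, 5 were called higher (background 15%) and 2 lower (background 13.2%). LAMA3 (ENSG00000053747.17, chr18:23689443-23956222) and LAMB3 encode an alpha and a beta chain of the laminin of epithelial hemidesmosomes. LAMA3 had 19.8, 21.6 and 21.9 CPM in control, 20.9, 19.4 and 22.1 with ascites, 35.3, 32.3 and 36.6 with bezafibrate and 33.0, 37.4 and 38.9 with both. It rose by 0.76 ± 0.05 on the log2 scale, or 1.69-fold, without overlap (edgeR adjusted p = 9.37e-15). LAMB3 had 6.41, 7.42 and 6.42 CPM in control, 6.76, 6.64 and 6.06 with ascites, 8.62, 8.66 and 9 with bezafibrate and 11.3, 8.58 and 10.98 with both. It too did not overlap and rose by 0.52 ± 0.09 (edgeR adjusted p = 9.6e-06). Per kb, LAMA3 and LAMB3 were among the least abundant laminin chains described, at 1.98 and 1.57 CPM per kb in control.

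LAMA4, an alpha chain best known from vessels and muscle, had 98.8, 98 and 102 CPM in control, 89.5, 90.4 and 95.1 with ascites, 128, 130 and 131 with bezafibrate and 125, 133 and 133 with both. The drug libraries were all higher, by 0.44 ± 0.03 on the log2 scale (edgeR adjusted p = 1.65e-15). LAMC1, the gamma chain of most laminins, ranged from 159 to 174 CPM without and from 167 to 186 CPM with the drug (medians 166 and 179). These ranges overlapped, and the change was 0.10 ± 0.03 (edgeR adjusted p = 0.00482). LAMB1, the most abundant laminin chain, ranged from 452 to 467 CPM without and from 425 to 450 CPM with the drug (medians 465 and 440) and fell by 0.08 on the log2 scale (SE 0.02, edgeR adjusted p = 0.00304), without overlap. LAMB2, the beta chain that replaces LAMB1 in some basement membranes, had medians of 47.9 and 42.6 CPM and overlapping ranges, with a change of -0.12 ± 0.04 (edgeR adjusted p = 0.0224). LAMA5, the main alpha chain of adult epithelial basement membranes, ranged from 326 to 362 CPM without and from 292 to 381 CPM with the drug and was not called at -0.05 ± 0.07.

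**Figure D3:**
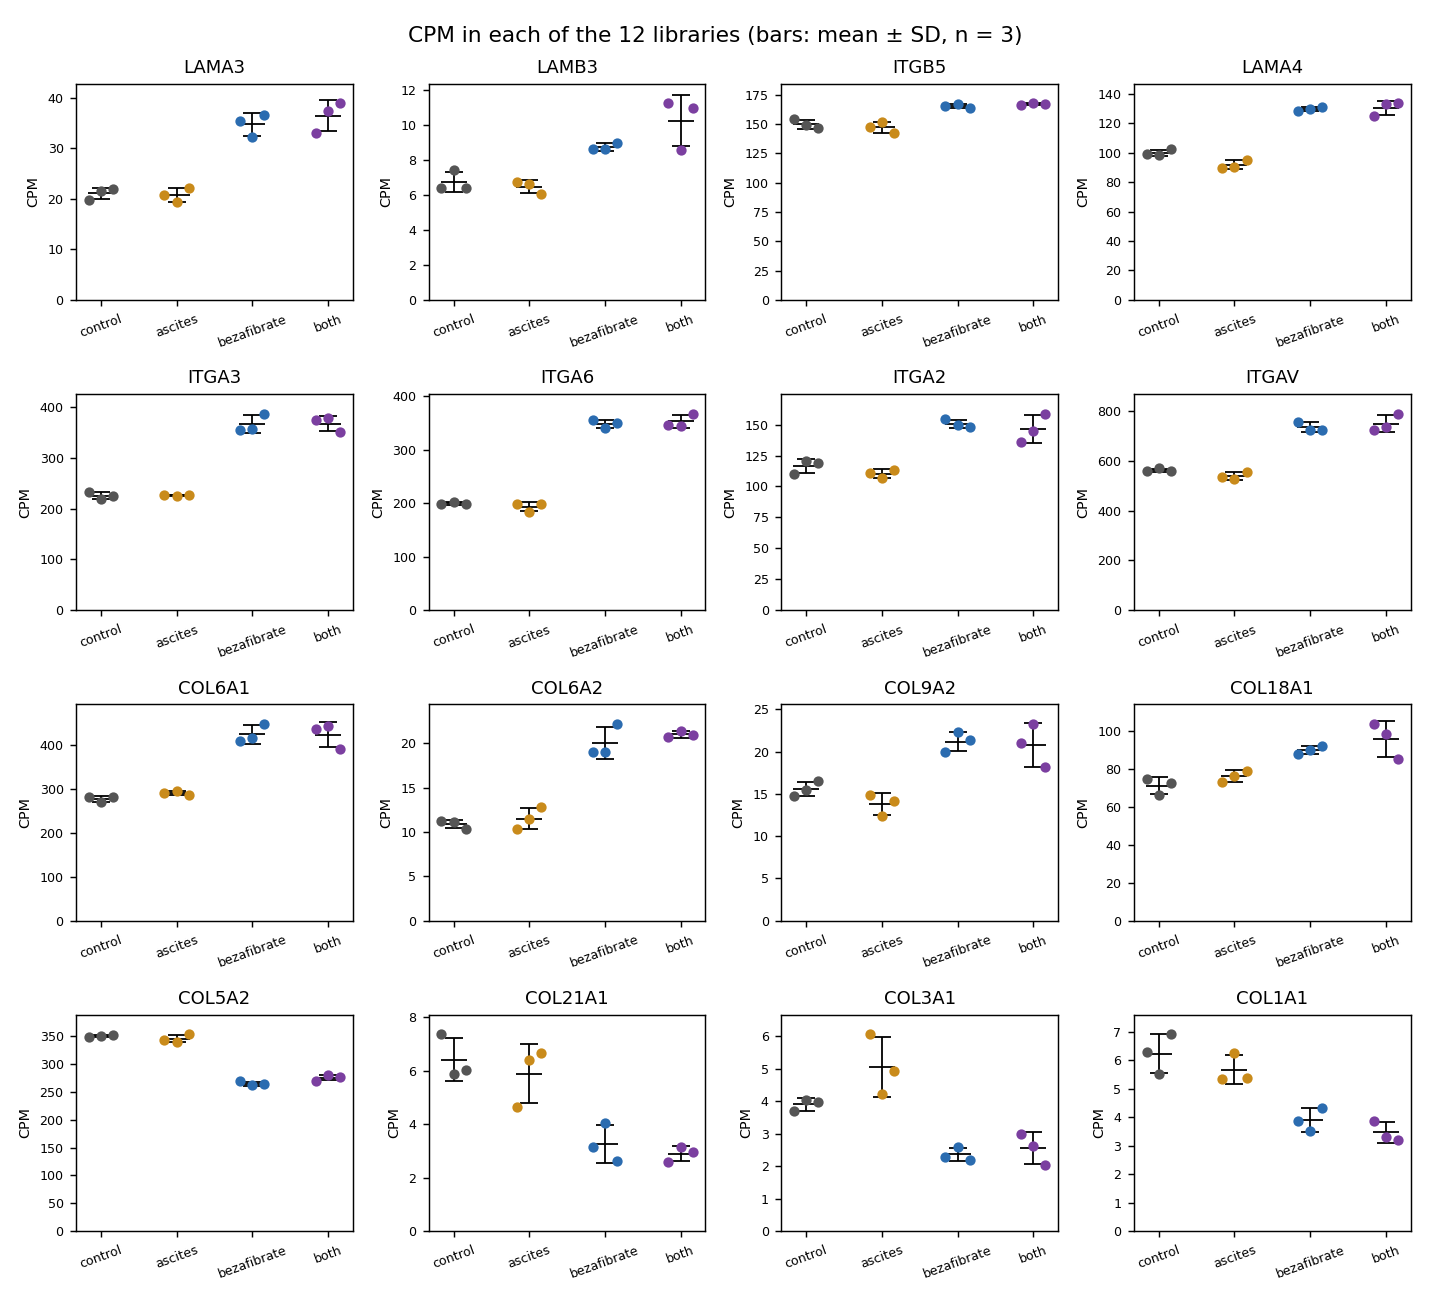
CPM in each of the 12 libraries for 16 of the genes, from 0 on each vertical axis, with the mean and SD of the 3 libraries of each group. The first 12 panels show higher values with bezafibrate, alone or with ascites (both), and the last row shows lower values of COL5A2, COL21A1, COL3A1 and COL1A1.

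Of the 15 collagens, 5 were called higher (background 15%) and 5 lower (background 13.2%). The chains of beaded-filament collagen VI had the largest increases among the collagens. COL6A2 (ENSG00000142173.16, chr21:46098097-46132849) had 11.2, 11.1 and 10.4 CPM in control, 10.3, 11.5 and 12.8 with ascites, 19.05, 19.05 and 22.2 with bezafibrate and 20.7, 21.4 and 20.9 with both. It did not overlap and rose by 0.87 ± 0.07 on the log2 scale, or 1.82-fold (edgeR adjusted p = 9.08e-14). COL6A1 (ENSG00000142156.16, chr21:45981737-46005050) had 282, 270 and 282 CPM in control, 292, 295 and 287 with ascites, 409, 417 and 449 with bezafibrate and 437, 444 and 392 with both. It rose by 0.58 ± 0.03, or 1.49-fold, again without overlap (edgeR adjusted p = 1.3e-16). Per kb, COL6A1 was at 65.7 and COL6A2 at 3.15 CPM per kb in control, while COL6A3, the third chain of the usual collagen VI trimer, was at 0.0179 CPM per kb and is not among the 38 genes. COL28A1, a related chain, was not called at -0.44 ± 0.19.

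COL18A1, a basement membrane collagen whose end fragment is endostatin, ranged from 66.3 to 79.0 CPM without and from 85.1 to 104 CPM with the drug (medians 73.7 and 90.9). It rose by 0.34 ± 0.04 on the log2 scale without overlap (edgeR adjusted p = 3.11e-08). Exons of SLC19A1 on the other strand cover 16.4% of its exon bases, so its counts are uncertain; SLC19A1 itself had a log2 change of 0.04 (edgeR adjusted p = 0.427). COL9A2, a fibril-associated collagen known from cartilage, ranged from 12.3 to 16.5 CPM without and from 18.2 to 23.3 CPM with the drug (medians 14.8 and 21.2) and rose by 0.52 ± 0.06 (edgeR adjusted p = 2.64e-08). COL2A1, the cartilage fibril chain, ranged from 4.92 to 6.19 CPM without and from 6.27 to 7.21 CPM with the drug (medians 5.67 and 6.70). Its ranges just failed to meet, and the change of 0.27 ± 0.10 (edgeR adjusted p = 0.0327) was called in neither comparison of 3 libraries with 3. COL7A1, the anchoring fibril collagen, ranged from 181 to 227 CPM without and from 176 to 267 CPM with the drug and was not called at 0.10 ± 0.11. COL17A1, a hemidesmosome collagen of the cell membrane, was not called at 0.03 ± 0.07, nor were COL9A3 and COL16A1.

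Other fibrillar collagens were lower. COL5A2 (ENSG00000204262.14, chr2:189031896-189225312), which makes up most of the fibrillar collagen signal, had 349, 350 and 352 CPM in control, 344, 340 and 354 with ascites, 269, 262 and 264 with bezafibrate and 270, 281 and 277 with both. It did not overlap and fell by 0.36 on the log2 scale (SE 0.02), a change of -22.3% (edgeR adjusted p = 5.8e-17). COL3A1 had 3.68, 4.04 and 3.97 CPM in control, 6.05, 4.22 and 4.92 with ascites, 2.29, 2.58 and 2.20 with bezafibrate and 2.99, 2.63 and 2.03 with both. It fell by 0.84 (SE 0.14) without overlap (edgeR adjusted p = 4.78e-06). COL1A1 ranged from 5.34 to 6.90 CPM without and from 3.21 to 4.33 CPM with the drug (medians 5.88 and 3.68) and fell by 0.68 (SE 0.11, edgeR adjusted p = 6.89e-06). COL1A2, the partner of COL1A1 in most collagen I, had 2 counts in all 12 libraries together. COL27A1 had medians of 50.6 and 46.0 CPM with overlapping ranges and a change of -0.16 ± 0.05 (edgeR adjusted p = 0.0152). Summed over the 11 fibrillar chains, the level was 59.3 CPM per kb in control, 58.5 with ascites, 46.3 with bezafibrate and 47.4 with both.

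COL21A1 (ENSG00000124749.17, chr6:56056590-56394094), a fibril-associated collagen, had the largest decrease of the 38 genes. It had 7.36, 5.88 and 6.03 CPM in control, 4.63, 6.40 and 6.67 with ascites, 3.14, 4.04 and 2.61 with bezafibrate and 2.58, 3.14 and 2.95 with both. The groups did not overlap, and it fell by 1.002 on the log2 scale (SE 0.13), a fold of 0.499 (edgeR adjusted p = 4.95e-08).

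Fibroblast markers were read beside these collagens. Of 11 markers, 4 passed the filter on low counts (COL1A1, COL3A1, LUM and PDGFRA), and all 4 were called lower with the drug (background 13.2%). COL1A1 and COL3A1 are collagens described above, so their calls repeat those results. Only LUM and PDGFRA are separate from them. The 11 summed to 231.8 to 244 CPM in control, 229 to 236 with ascites, 187 to 199.6 with bezafibrate and 184 to 199 with both, most of it LUM (184 CPM in control and 164 with bezafibrate). FAP and POSTN had 0 counts in all libraries, THY1 had 1, COL1A2 and ACTA2 had 2 and DCN had 3. Of 16 leukocyte markers, 7 had 0 counts in all libraries, PTPRC, CD3E and TYROBP among them, and 3 passed the filter. The 16 summed to 75.2 to 78.5 CPM in control, 77.03 to 85.25 with ascites, 93.4 to 98.1 with bezafibrate and 94.4 to 102.4 with both. Most of this was CD68, a lysosomal membrane protein abundant in macrophages, with means of 72.5 CPM in control and 90.97 with bezafibrate. CD68 was the 1 leukocyte marker called, higher with the drug (background 15%). Of 9 platelet and red cell markers, PPBP, PF4 and GP9 had 0 counts and 4 passed the filter, of which 0 were called (background 28.3% for the drug). They summed to 4.92 to 5.73 CPM in control, 4.63 to 5.86 with ascites, 3.93 to 5.43 with bezafibrate and 4.98 to 6.1 with both. The 6 endothelial markers, of which KDR had 0 counts, summed to at most 1.02 CPM in any library. The part of these marker genes in the results was not tested.

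Some of these genes are neighbours in the genome (GENCODE 29, GRCh38). COL6A1 and COL6A2 lie 93.0 kb apart on chromosome 21, and both were called higher. COL3A1 and COL5A2 lie 19.1 kb apart on chromosome 2, on opposite strands, and both were called lower. ITGA3 and COL1A1 lie 92.8 kb apart on chromosome 17 and were called in opposite directions, with log2 changes of 0.70 and -0.68.

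The comparison of ascites with control asked what the fluid changed. None of the 38 genes was called (0 of 38, background 0.0882%) by edgeR's quasi-likelihood test, and the lowest adjusted p was 0.644. At an unadjusted p under 0.05, 3 of 38 passed (background 6.01%): LAMC1, LAMA4 and COL3A1. LAMC1 was at 172 ± 1.89 CPM (SD, n = 3) in control and 160 ± 0.811 with ascites, a log2 change of -0.11 ± 0.04. LAMA4 was at 99.7 ± 2.21 CPM and 91.7 ± 3.03, a change of -0.12 ± 0.04, and COL3A1 at 3.90 ± 0.189 and 5.06 ± 0.927, a change of 0.38 ± 0.18. In each of these the 3 libraries of one group lay beyond those of the other, as they did for 7 of the 38 genes (background 12.7%). The median SE of a log2 change over the 38 genes was 0.09, so small changes were not detectable for most of them. A change of -7.91% for LAMA4 had an edgeR adjusted p of 0.675, and 1 of 30.4% for COL3A1 had 0.815. The 0 calls therefore do not exclude changes of such sizes in genes measured with similar spread.

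With bezafibrate present, the addition of ascites again gave 0 calls among the 38 genes by edgeR (background 0.128%), and 1 gene, LAMB3, at an unadjusted p under 0.05 (background 4.79%), with a log2 change of 0.24 ± 0.12. The groups did not overlap for 1 gene, COL5A2 (background 9.27%). Averaged over both drug states, ascites gave 0 calls (background 0.281%), with 1 gene, COL18A1, at an unadjusted p under 0.05 (background 6.97%) and a log2 change of 0.10 ± 0.04, and all 38 genes had overlapping groups (0 without overlap, background 0.289%). Without combination replicate 3, COL18A1 was called (log2 change 0.13 ± 0.03, edgeR adjusted p = 0.0208); that library had 85.1 CPM, against 104 and 98.4 CPM in the other combination libraries. The interaction, the difference between the effect of the drug with and without ascites, was called by edgeR for 0 of the 38 genes (background 0%), and the lowest adjusted p was 0.999. At an unadjusted p under 0.05, 2 of 38 passed (background 3.57%): LAMA4 at 0.13 ± 0.06 and LAMC1 at 0.11 ± 0.05, the chains with lower means in the ascites group. Against control, the combination called 21 of the 38 genes (55.3%, background 18.2%), 15 higher (background 10.3%) and 6 lower (background 7.96%), and 26 had groups without overlap (background 30.2%); it shares its libraries with the comparisons above.

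**Figure D4:**
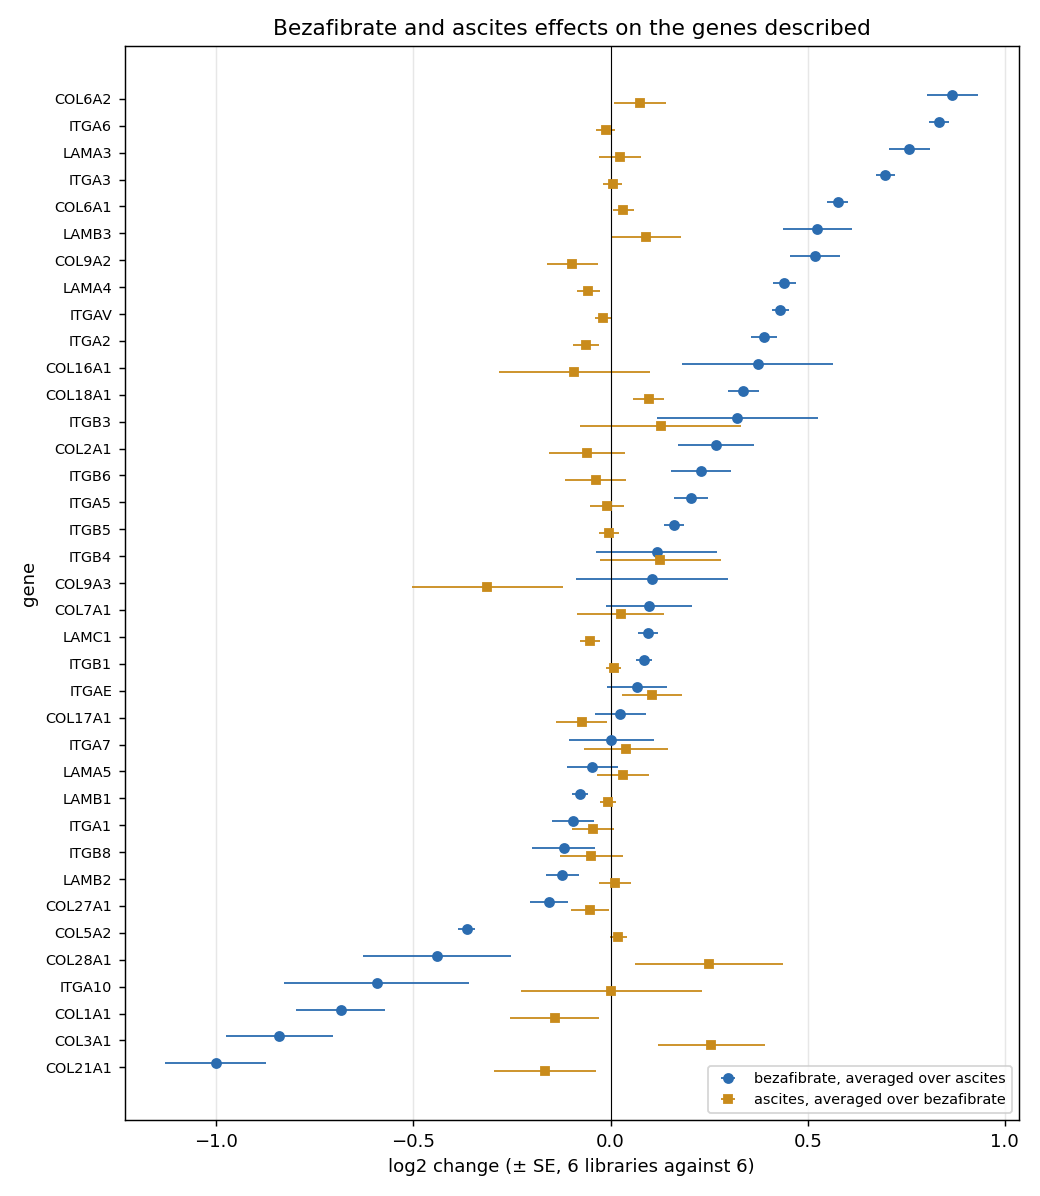
Log2 change (± SE) of each of the genes described with bezafibrate averaged over the groups without and with ascites (circles) and with ascites averaged over the groups without and with bezafibrate (squares), 6 libraries against 6, ordered by the drug's effect. The circles run from 0.87 for COL6A2 to -1.002 for COL21A1, and the squares lie between -0.31 and 0.26.

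Genes that act with these were read from 6 lists, in which the averaged effect of bezafibrate is given beside the background of 28.3%. Of 25 tested enzymes and chaperones that process and crosslink collagen, 5 were higher and 6 lower (44%, median log2 change 0.03). P4HA2, a prolyl hydroxylase, rose by 0.58 ± 0.03 and PLOD2, a lysyl hydroxylase, by 0.34 ± 0.04, whereas LOXL2, a lysyl oxidase that crosslinks collagen, fell by 0.35 and P3H3 by 0.34. Of 18 other matrix glycoproteins, 2 were higher and 4 lower (33.3%, median -0.04). TINAGL1 rose by 0.89 ± 0.03 and NTN4, a laminin-related netrin, by 0.53 ± 0.04, whereas FN1, fibronectin and the ligand of the ITGA5 receptor, fell by 0.47 (196.8 ± 3.69 CPM in control and 139 ± 7.67 with bezafibrate; SD, n = 3), and TINAG fell by 1.33.

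Of 41 integrin adaptors and focal adhesion genes, 8 were higher and 6 lower (34.1%, median 0.03). FERMT1, the epithelial kindlin that activates integrins, rose by 0.56 ± 0.03, and TNS2 fell by 0.28 and PARVB by 0.14. Of 17 other receptors for matrix, 4 were higher and 5 lower (52.9%, median -0.09): the adhesion receptor ADGRG1, which binds collagen III, rose by 0.90 ± 0.08 and SDC3 by 0.67 ± 0.04, and ADGRG6 fell by 0.62 and the laminin receptor BCAM by 0.30. Of 3 tested hemidesmosome genes, PLEC was higher by 0.25 ± 0.06, and 0 were lower (33.3%, median 0.03). Of 28 matrix proteases and inhibitors, 11 were higher and 2 lower (46.4%, median 0.08): TIMP3, an inhibitor of metalloproteinases, rose by 1.304 ± 0.04 (30.7 ± 0.997 CPM in control and 72.5 ± 2.44 with bezafibrate; SD, n = 3), and ADAM9 fell by 0.14 and PLAT by 1.04. All the genes named from these lists were called by edgeR at adjusted p-values of 0.0165 or less. With ascites, 0 genes of the 6 lists were called in any of the ascites comparisons. The background was 0.0882% for ascites against control, 0.128% with bezafibrate present and 0.281% averaged over both drug states.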

How the data were processed

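The authors deposited 1 table per library of whole-number counts per gene, with Ensembl identifiers and symbols; they may be rounded estimates, since RSEM is among the tools named. Per the submitters' processing notes, which give no role or order, Trimmomatic 0.39, STAR 2.7.9a, RSEM 1.3.3, DESeq2 1.28.1 and GRCh38 were used; strandedness and annotation are not given in the sources used here. The labels gave the groups and the replicate numbers.

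The filter filterByExpr (minimum count 10) kept 12470 genes, of which 40 met the name rule. All 12 libraries were fitted in edgeR 4.0.16 (R 4.3.3; TMM scaling, glmQLFit with robust estimation, glmQLFTest, 8 residual degrees of freedom), with Benjamini-Hochberg adjustment over all tested genes and calls at adjusted p under 0.05. Each SE was derived from the log2 change and its F. CPM used TMM library sizes; CPM per kb used GENCODE 29 principal transcripts. All 82 genes had a GENCODE 29 position. Promoters came from RefSeq on GRCh38.p14. The script was tested on simulated data. Pairs of replicates differed by more than sampling noise (chi-square per degree of freedom 1.44 to 4.45).

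Genes with values in full were those called for either agent and the 3 most abundant per family; from other lists, the called genes with the 2 largest and 2 smallest changes, at 1 CPM or more; a few genes within these rules are counted but not reported here, in text or figures. The members and lists were chosen with earlier results of these data known. Alternatives were other scalings, no filter, DESeq2 1.42.0, a replicate block, a stricter threshold, the compared groups alone and leaving out each library.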

Additional observations from a re-analysis of the deposited data

How the results depend on the processing

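The counts of called genes among the 38 kept their direction and stayed within 1.5 times of the reported ones under every alternative, with 1 exception. Leaving out each library in turn gave 16 to 22 calls for bezafibrate against control, 19 to 21 for the combination against ascites, 16 to 21 for the combination against control and 22 to 26 for bezafibrate averaged over ascites. The other alternatives gave 16 to 22, 19 to 21, 16 to 21 and 21 to 26 calls. The exception was ascites averaged over bezafibrate, with 0 to 1 calls when libraries were left out: 1 call, COL18A1, without combination replicate 3, and 0 under all others. Ascites against control, the combination against bezafibrate and the interaction gave 0 calls throughout. The fit of the compared groups alone has no value for the interaction and the averaged effects.

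Of 65 called results of 27 genes (bezafibrate against control, the combination against ascites, and the averaged effect), 55 kept their call under all alternatives run. For bezafibrate against control, the call was lost under 8 of 19 alternatives for ITGA5, 6 for ITGB1, 13 for LAMB1 (with the replicate block among them, adjusted p = 0.0504) and 7 for LAMB3. For the combination against ascites it was lost under 1 for ITGA5 and 7 for ITGB1, and for the averaged effect under 10 of 18 for COL2A1, 6 for LAMB2, 5 for ITGB6 and 4 for COL27A1. DESeq2 gave an adjusted p of 0.145 for COL2A1, 0.0964 for ITGB6 and 0.0752 for LAMB2 in the averaged effect. COL7A1 was called higher in the averaged effect without the filter on low counts (log2 change 0.09, adjusted p = 0.00179); the cause was not tested. Changes of sign occurred in results that were not called: with each library left out in turn, LAMA5 ranged from -0.0825 to 0.0163 for bezafibrate against control (highest without bezafibrate replicate 1) and from -0.163 to 0.0199 for the combination against ascites (highest without combination replicate 3). COL7A1 for the combination against ascites ranged from -0.0553 (without combination replicate 2) to 0.219, and was also below 0 without ascites replicate 3. The causes were not tested.

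The labels number the replicates 1 to 3 in each group. Deviations of same-numbered libraries correlated between -0.135 and 0.0613 over 18 pairs, 0 of them above 0.1. Only 1 of 12 libraries correlated best with its own number. No strong effect shared by number was thus seen, but correlations cannot show whether same-numbered libraries came from 1 experiment. With the replicate number as a block, 20, 20, 21 and 25 genes were called for the 4 comparisons with the drug, and 0 for the 3 ascites comparisons and the interaction. No scaling moved the median log2 change of all genes by over 0.1. Depth limits the genes near 1 CPM, of which 3 counts in 1 library make 0.161 to 0.255 CPM.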

Other observations

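Some of the 44 collagen, laminin and integrin genes below a mean of 1 CPM are given here as values. Of the 44, 12 were without a single count. A count of 0 allows up to 0.0173 CPM (3 counts over the 12 libraries, counting error only). Together with these 12, 26 genes were below 0.1 CPM. ITGA4, the alpha chain of leukocyte VLA-4, and LAMA1 and LAMC3 had 0 counts in every library. The collagen IV chains COL4A1 and COL4A2, the usual backbone of basement membranes, had 0, 0 and 0 and 7, 0 and 3 counts in the control libraries. With bezafibrate they had 0, 3 and 0 and 5, 5 and 5 counts. COL4A1 was thus close to the limit of detection, at a mean of 0.027 CPM and 5 counts in all libraries together. COL4A2 was above that limit but low, at 0.319 CPM and 56 counts. These cells expressed the laminin chains LAMB1 and LAMA5.

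COL5A1, which forms collagen V with COL5A2, had 1, 1 and 3 counts in control, 2, 2 and 1 with ascites, 4, 11 and 6 with bezafibrate and 6, 4 and 11 with both. It thus had 4 or more counts in each library with the drug and 3 or fewer in each without, while COL5A2 was lower with the drug. COL24A1, another fibrillar chain, had 10, 5 and 11 counts in control, 3, 7 and 7 with ascites, 3, 5 and 2 with bezafibrate and 2, 2 and 0 with both. ITGA2B, the platelet integrin alpha chain, had 11, 7 and 10 counts in control and 3, 1 and 5 with ascites, 5, 2 and 5 with bezafibrate and 7, 1 and 0 with both. These 3 genes were picked after their values were seen, did not pass the filter on low counts and were not tested.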
